A study of Homo sapiens with 8 samples.

Results

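The proteasome subunit genes were followed across C8161 and A2058, established human melanoma cell lines that carried either a retrovirally delivered ATF-3 (gene ATF3) or a neomycin control. The members were the protein-coding genes whose symbols combine PSM, a letter from A to E and a number, without the interferon-inducible PSMB8 and PSMB9. The rule took 40 of the 18478 genes in the authors' table, and no measured value entered it. Of these, 39 reached at least 1 RPKM (reads per kilobase of transcript and per sequencing depth) in every column. The exception was PSMB11, a beta subunit known from the thymic cortex, which was listed at 0 RPKM in C8161 with ATF3, at 0.01 RPKM in the C8161 control and at 0 RPKM in both A2058 columns.

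The 26S proteasome degrades proteins that carry ubiquitin chains. Its 20S core is a barrel of stacked rings, with outer alpha subunits (PSMA genes) that gate the entry and inner beta subunits (PSMB genes), of which PSMB5, PSMB6 and PSMB7 hold the catalytic sites. The 19S cap binds and unfolds substrates: ATPases (PSMC genes) and scaffold proteins form its base, and a lid of further PSMD proteins includes the deubiquitinase PSMD14. PSMD5, PSMD9 and PSMD10 are chaperones that help to assemble the base, and the PSME genes encode other caps that open the core without the 19S particle. Mammalian subunit genes are transcribed together under NFE2L1 when proteasome activity falls short, and ATF3 is a stress-induced factor that binds ATF/CRE and AP-1 elements as a dimer.

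Promoters of RefSeq genes (GRCh38.p14, 250 bases before the start site and 50 from it onwards) were available for 35 of the 40 members. Those of PSMA7, PSMB1, PSMB6, PSMB7 and PSMD4 were not analysed here. The 5 printed here belong to the gene with the largest difference between the lines (PSMD2), to 3 beta subunits that were lower in C8161 with ATF3 (PSMB3, PSMB4 and PSMB5), and to PSMD9, which held the only AP-1 element. All run 5′ to 3′ on the strand of the gene, and capitals mark the motifs described after them. PSMD2 lies at chr3:184298991-184299290 (plus strand), PSMB3 at chr17:38752491-38752790 (plus), PSMB4 at chr1:151399323-151399622 (plus), PSMB5 at chr14:23035171-23035470 (minus) and PSMD9 at chr12:121888540-121888839 (plus).
PSMD2: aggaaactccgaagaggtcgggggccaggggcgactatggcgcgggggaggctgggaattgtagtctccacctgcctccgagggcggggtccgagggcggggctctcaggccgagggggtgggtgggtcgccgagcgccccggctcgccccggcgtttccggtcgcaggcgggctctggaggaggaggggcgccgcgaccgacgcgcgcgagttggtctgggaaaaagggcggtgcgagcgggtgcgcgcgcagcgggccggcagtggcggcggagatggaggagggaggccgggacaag
PSMB3: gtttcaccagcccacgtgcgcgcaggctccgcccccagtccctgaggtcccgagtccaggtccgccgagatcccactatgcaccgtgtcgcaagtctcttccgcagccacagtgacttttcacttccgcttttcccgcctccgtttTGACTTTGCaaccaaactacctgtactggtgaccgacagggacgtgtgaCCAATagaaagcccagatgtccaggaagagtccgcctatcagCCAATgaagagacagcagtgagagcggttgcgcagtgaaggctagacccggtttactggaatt
PSMB4: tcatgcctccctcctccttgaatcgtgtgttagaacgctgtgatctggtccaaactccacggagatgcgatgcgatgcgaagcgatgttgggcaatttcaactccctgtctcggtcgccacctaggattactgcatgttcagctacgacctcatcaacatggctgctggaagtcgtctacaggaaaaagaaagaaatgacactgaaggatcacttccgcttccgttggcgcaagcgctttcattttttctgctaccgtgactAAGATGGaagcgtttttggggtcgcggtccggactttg
PSMB5: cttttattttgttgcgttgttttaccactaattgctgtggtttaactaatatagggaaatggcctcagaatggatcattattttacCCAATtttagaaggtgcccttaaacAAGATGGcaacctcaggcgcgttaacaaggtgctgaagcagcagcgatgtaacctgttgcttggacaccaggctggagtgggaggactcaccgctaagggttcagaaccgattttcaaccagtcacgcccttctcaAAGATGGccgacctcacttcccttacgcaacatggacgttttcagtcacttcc
PSMD9: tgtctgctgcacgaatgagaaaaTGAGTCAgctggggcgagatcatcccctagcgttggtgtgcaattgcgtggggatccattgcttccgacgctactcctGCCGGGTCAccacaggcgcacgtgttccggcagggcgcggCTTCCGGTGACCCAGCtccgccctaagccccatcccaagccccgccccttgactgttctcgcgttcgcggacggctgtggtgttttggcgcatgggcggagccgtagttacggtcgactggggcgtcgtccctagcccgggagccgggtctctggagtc

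A total of 6 motifs were searched on both strands. The ATF/CRE element TGACGTCA was in 0 of the 35 member promoters, against 3.31% of the promoters of 10118 genes expressed in these columns. The AP-1 element TGACTCA was in 1, that of PSMD9, against 3.005%. The core of the antioxidant response element, TGACNNNGC, to which NFE2L1 and NFE2L2 bind with small MAF proteins, was in 10 (28.6%), against 14.9% of expressed promoters. CCAAT boxes (CCAAT) were in 17 (48.6%, against 36.5%), ETS elements (CCGGAAG) in 11 (31.4%, against 19.6%) and the YY1 core AAGATGG in 7 (20%, against 7.69%). In the sequences above, PSMD2 held none of the 6 motifs. PSMB3 held an antioxidant response core beginning 104 bases before the start site and CCAAT boxes beginning 55 and 13 bases before it. PSMB5 held a CCAAT box and a pair of YY1 cores, 1 of them across the start site, and PSMB4 held 1 YY1 core. In PSMD9 an ETS element touched an antioxidant response core without sharing a base with it. These matches describe letters and not binding.

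The arms were C8161 overexpressing ATF-3 (3 libraries), its neomycin control (3 libraries), A2058 overexpressing ATF-3 (1 library) and its neomycin control (1 library), all grown in DMEM with serum and antibiotics. Whether the transduced cells were clones or pools is not given in the sources used here. The table has 1 combined column per C8161 arm and 1 column per A2058 library, so no comparison has a replicate spread, no test was run and every difference describes these columns alone. ATF3 stood at 62.57 RPKM in C8161 with ATF3 and 4.76 RPKM in its control (13.1-fold), and at 4.71 RPKM in A2058 with ATF3 and 1.22 RPKM in its control (3.86-fold). A gene's value does not separate the introduced copy from the cell's own. Column sums were between 470633 and 481302 RPKM. The 7 melanocyte-lineage markers, among them SOX10 and PMEL, summed to 1.58 RPKM in C8161 with ATF3 and 1.45 RPKM in its control, with TYR at 0 in both, so the defining markers of the lineage were all but absent there. They summed to 1539 RPKM in A2058 with ATF3 and 1503 RPKM in its control, with 7 of 7 at 1 RPKM or more. Of 4 markers known from dedifferentiated melanoma, AXL, EGFR and WNT5A were higher in C8161 (293.63, 47.12 and 3.65 RPKM with ATF3, 279.65, 46.17 and 3.73 RPKM in the control) than in A2058 (12.63, 0.07 and 0.02 RPKM with ATF3, 11.41, 0.07 and 0.04 RPKM in the control). NGFR was lower in C8161 (0.07 RPKM with ATF3, 0.06 RPKM in the control) than in A2058 (3.28 RPKM with ATF3, 2.93 RPKM in the control). The 5 endothelial markers summed to 81.5 RPKM in C8161 with ATF3 and 76.4 RPKM in its control, from TIE1 and CDH5, with the others under 1 RPKM, and to 2.19 RPKM in A2058 with ATF3 and 2.10 RPKM in its control. CDH5 itself had 18.14 RPKM in C8161 with ATF3 and 8.86 RPKM in its control, and its part in the results was not tested. In bulk RNA, a lower value can come from fewer cells or from less RNA per cell, which cannot be told apart.

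Proteasome genes were abundant in all 4 columns. Together they took 1.16% of the RPKM sum in C8161 with ATF3 and 1.18% in its control, and 0.971% in A2058 with ATF3 and 0.960% in its control. The median of the 39 expressed members was 114 and 116 RPKM in C8161 with ATF3 and its control, and 112 and 110 RPKM in A2058 with ATF3 and its control. Subunits that enter the particle in equal copy numbers differed widely in RNA level per length. In the alpha ring, PSMA1 stood 7.26 times above PSMA5 in C8161 with ATF3 (309.80 against 42.65 RPKM), and in the C8161 control the range was 7.44-fold. In A2058 the highest alpha gene was PSMA7 and the lowest again PSMA5, which lay 8.45-fold apart with ATF3 and 8.54-fold apart in the control.

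The order of levels was kept more closely within a line than between lines. Spearman's rho over 39 genes was 0.99 between C8161 with ATF3 and its control, 0.996 between A2058 with ATF3 and its control, and 0.84 between C8161 and A2058 in either arm. The points of each pair share their gene lengths and the authors' counting, so rho is a description. PSMD2, the scaffold of the base that receives ubiquitin-like domains, ranked first in both C8161 columns, and was 16th with ATF3 and 15th in the control in A2058. PSMB4, a structural beta subunit, was 6th with ATF3 and 5th in the control in C8161, and ranked first in both A2058 columns. The lowest expressed members in C8161 were PSMB10 (15.52 RPKM) with ATF3 and the nuclear activator PSME4 (16.24 RPKM) in the control, and in A2058 the base chaperone PSMD5 (15.75 RPKM with ATF3, 15.65 RPKM in the control).

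The balance between core and cap was read from medians and from sums, which ordered the lines differently. The median of the 14 constitutive core genes was 181.74 and 190.01 RPKM in C8161 with ATF3 and its control, and 142 and 143 RPKM in A2058 with ATF3 and its control. The median of the 17 cap subunits, chaperones left out, was 112.84 and 108.49 RPKM in C8161 with ATF3 and its control, and 127.89 and 127.16 RPKM in A2058 with ATF3 and its control. The core median was thus 1.61 and 1.75 times the cap median in the C8161 columns, and 1.11 and 1.12 times in the A2058 columns, with ATF3 first in each pair. The sums, to which PSMD2 adds most in the C8161 cap, were 2522 RPKM for the core and 2540 RPKM for the cap in C8161 with ATF3, 2689 and 2594 RPKM in its control, 2386 and 1892 RPKM in A2058 with ATF3, and 2313 and 1863 RPKM in its control. The median log2 ratio of the C8161 control over the A2058 control was 0.37 for the core genes and 0.36 for the cap genes, and 0.24 and 0.39 in the arms with ATF3.

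**Figure D1:**
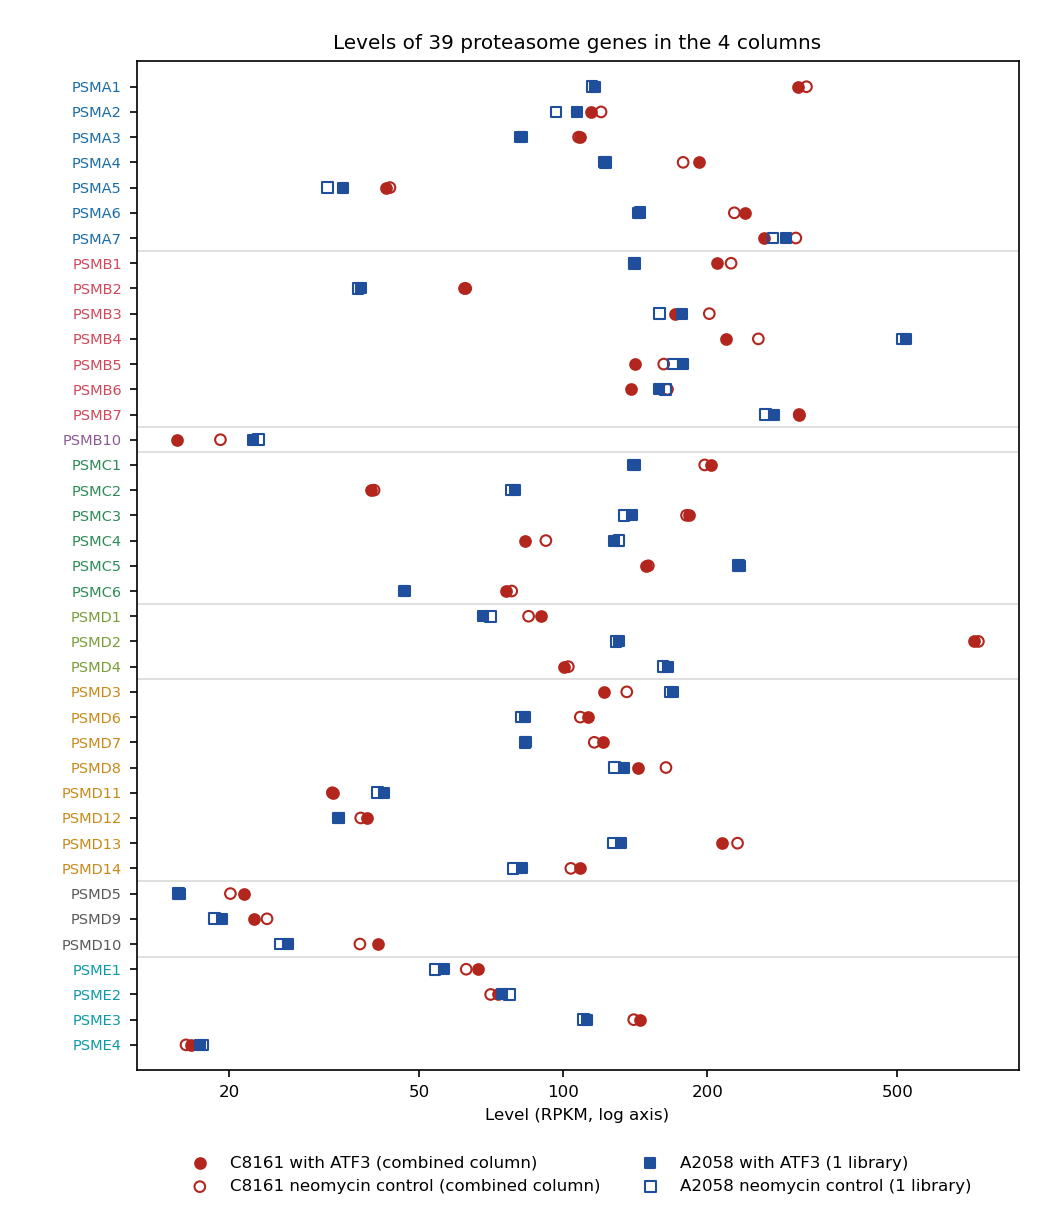
Level of each of 39 proteasome genes in RPKM (log axis) in C8161 (circles) and A2058 (squares), filled for arms with ATF3 and open for neomycin controls. Lines separate, from the top, alpha ring, constitutive beta ring, PSMB10, base ATPases, base scaffold, lid, base chaperones and activators, and the widest split between lines is that of PSMD2 (721.97 and 738.31 RPKM in C8161, 130.59 and 128.85 RPKM in A2058).

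With ATF3 in C8161, the proteasome genes as a whole stayed close to their control levels, while most constitutive beta genes were lower. Ratios are given as log2 of RPKM + 1 with ATF3 minus that in the control, which understates the change of low genes. The 39 members had a median of -0.02, against 0.01 over 10941 genes, and ran from -0.29 (PSMB10) to 0.12 (PSMD10). Members above 0 numbered 18 of 39, against 52.0% of all genes, and 22 when the columns were scaled to the same sum or 14 with GC and length trends removed. The share of all genes above 0 was not taken under these alternatives. The median of all genes was 0.0298 with columns scaled to the same sum and -0.0046 with trends removed, beside 0.0106 and -0.026 for the members. No member was 1.2-fold higher (2.19% of all genes were), and 1 was 1.2-fold lower (2.71% of all genes). A level band was drawn around each gene: it holds the middle 95% of ratios among the 500 genes closest to it in level. Above the band lay 0 members (2.74% of genes) and below it 1, again PSMB10 (2.67% of genes). These shares are near or under those of all genes.

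The constitutive beta ring had the lowest median of any role group with more than 1 gene, -0.20, with 6 of 7 genes below 0. Of all genes, 52.0% were above 0. PSMB6, which carries the caspase-like site, had 138.62 RPKM with ATF3 and 165.10 RPKM in the control (-0.25). PSMB5, which carries the chymotrypsin-like site and is the main target of proteasome inhibitor drugs, had 140.96 RPKM with ATF3 and 162.15 RPKM in the control (-0.20). PSMB7, which carries the trypsin-like site, was unlike them, at 311.69 RPKM with ATF3 and 311.43 RPKM in the control (0.00).

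The structural beta genes were split in the same way. PSMB3 had 171.57 RPKM with ATF3 and 201.97 RPKM in the control (-0.23), and PSMB4 had 219.08 RPKM with ATF3 and 255.79 RPKM in the control (-0.22). PSMB1 had 209.11 RPKM with ATF3 and 224.30 RPKM in the control (-0.10), and PSMB2 had 62.11 RPKM with ATF3 and 62.48 RPKM in the control (-0.01). PSMB1, PSMB3, PSMB4, PSMB5 and PSMB6 were below 0 under each of 3 rescalings (equal column sums, quantile normalization, and removal of trends with GC content and length), whereas PSMB2 was above 0 under the first of these and under quantile normalization. All 7 lay inside their level bands: 3.60% of the genes nearest in level had a lower ratio than PSMB6, 5% than PSMB3, 6.40% than PSMB4 and 9% than PSMB5. PSMB10, the third interferon-inducible beta subunit, had 15.52 RPKM with ATF3 and 19.17 RPKM in the control (-0.29). Of its transcript sequence, 38.9% is shared with an overlapping annotated gene on the same strand, so its reads may be divided.

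The alpha ring was mixed, with 3 of 7 genes above 0, against 52.0% of all genes, and a median of -0.02. PSMA7 was lowest, at 262.33 RPKM with ATF3 and 306.40 RPKM in the control (-0.22), and PSMA4 was highest, at 191.91 RPKM with ATF3 and 178.05 RPKM in the control (0.11). PSMA6 had 240.05 RPKM with ATF3 and 227.84 RPKM in the control (0.08), but 85.6% of its transcript sequence is shared with an overlapping annotated gene on the same strand, so its reads may be divided.

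In the cap, ratios were of both signs, with 8 of 17 subunits above 0, chaperones left out, against 52.0% of all genes. Some were as low as those of beta genes: PSMD8 (-0.19) was near PSMB5 (-0.20), and PSMC4 (-0.15) was below PSMB1 (-0.10). Of the 6 base ATPases, 2 were above 0, from PSMC1 (203.33 RPKM with ATF3, 197.54 RPKM in the control, 0.04) down to PSMC4 (82.96 RPKM with ATF3 and 91.92 RPKM in the control, -0.15). Of the 3 base scaffold and receptor genes, PSMD1 had 89.63 RPKM with ATF3 and 84.57 RPKM in the control (0.08), PSMD2 had 721.97 RPKM with ATF3 and 738.31 RPKM in the control (-0.03) and the ubiquitin receptor PSMD4 had 100.31 RPKM with ATF3 and 102.42 RPKM in the control (-0.03). With columns scaled to the same sum, 4 of the ATPases were above 0. In the lid, 5 of 8 were above 0, or 3 with GC and length trends removed, with PSMD7 highest (121.15 RPKM with ATF3 and 116.05 RPKM in the control, 0.06) and PSMD8 lowest (143.39 RPKM with ATF3 and 163.91 RPKM in the control, -0.19).

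Of the 3 chaperones, 2 were above 0, and of the 4 activators, 4 were, against 52.0% of all genes. The base chaperone PSMD10, also known as gankyrin, had 41.01 RPKM with ATF3 and 37.53 RPKM in the control (0.12), PSMD5 had 21.51 RPKM with ATF3 and 20.11 RPKM in the control (0.09), and PSMD9 had 22.58 RPKM with ATF3 and 23.99 RPKM in the control (-0.08). All 4 activators were above 0 as deposited: PSME1 and PSME2, which form the interferon-inducible cap, at 0.08 and 0.05, nuclear PSME3 at 0.04 and PSME4 at 0.03. With GC and length trends removed, PSME4 was at -0.03.

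**Figure D2:**
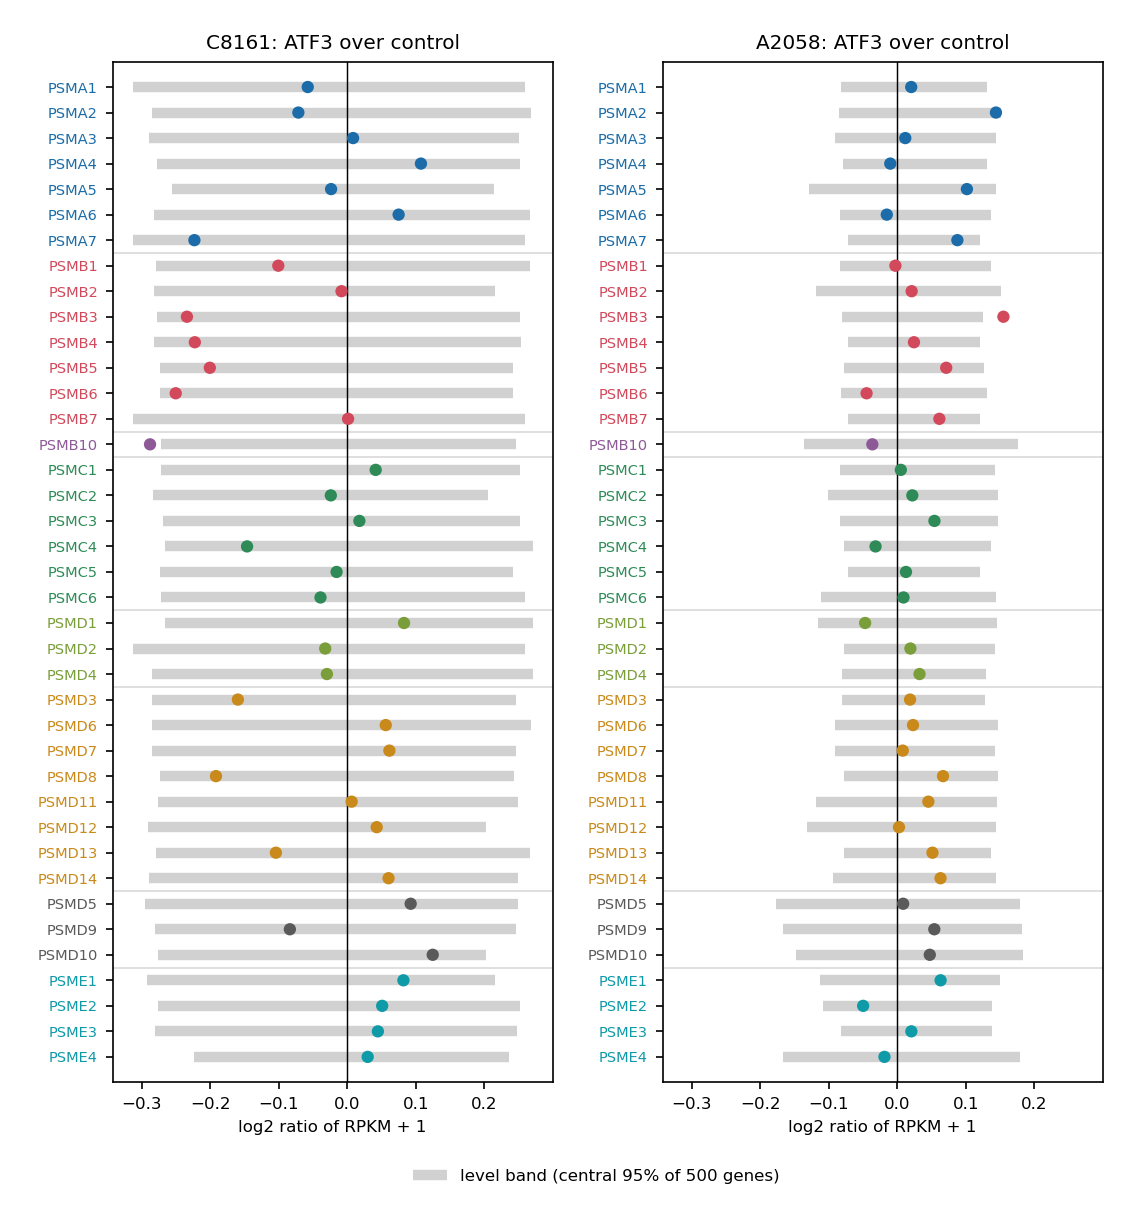
Log2 ratio of RPKM + 1, ATF3 over neomycin control, for each of 39 proteasome genes in C8161 (left) and A2058 (right), grouped as in the plot of levels, with the level band of each gene (central 95% of the 500 genes nearest in level) in grey. In C8161 only PSMB10 lies below its band (-0.29), and in A2058 only PSMB3 lies above it (0.16).

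In A2058 the genes with ATF3 were also close to the control, with more members slightly above it. The median of 39 members was 0.02, against 0.00 over 11883 genes, and the ratios ran from -0.05 (PSME2) to 0.16 (PSMB3). Members above 0 numbered 30 of 39, against 51.3% of all genes. That number was 23 with columns scaled to the same sum, 22 after quantile normalization and 22 with GC and length trends removed. The share of all genes above 0 was not taken under these settings. In that order, the median of all genes was -0.0116, -0.0026 and 0.0029, and that of the members 0.0037, 0.0046 and 0.0093. No member was 1.2-fold higher (2.02% of genes) or 1.2-fold lower (1.51% of genes). Above the level band lay 1 member, PSMB3 (2.67% of genes), and below it 0 (2.72% of genes).

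PSMB3 had 177.15 RPKM with ATF3 and 159.00 RPKM in the control (0.16). The alpha genes PSMA2 (106.80 RPKM with ATF3, 96.55 RPKM in the control, 0.14) and PSMA5 (34.55 RPKM with ATF3 and 32.13 RPKM in the control, 0.10) followed. PSMA2 shares 51.0% of its transcript sequence with an overlapping annotated gene on the same strand. Low values were searched for steps of whole reads, which were too weak in all 4 columns to give a depth, so counting error is unknown.

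By role, 5 of 7 alpha genes, 5 of 7 constitutive beta genes, 5 of 6 base ATPases, 2 of 3 base scaffold and receptor genes, 8 of 8 lid genes, 3 of 3 chaperones and 2 of 4 activators were above 0 in A2058. The share over all genes was 51.3%, and no group was tested against it. The lid genes ran from PSMD12 (33.94 RPKM with ATF3, 33.88 RPKM in the control, 0.00) to PSMD8 (133.91 RPKM with ATF3 and 127.81 RPKM in the control, 0.07), and 6 of 8 were above 0 with columns scaled to the same sum and 5 with GC and length trends removed. Of the base ATPases, 2 of 6 were above 0 with columns scaled to the same sum or after quantile normalization, and 3 with trends removed. Of the alpha genes, 3 of 7 were above 0 after quantile normalization or with trends removed, and of the activators, 1 of 4 after quantile normalization. PSMA6 was lowest in the alpha ring (143.14 RPKM with ATF3 and 144.68 RPKM in the control, -0.02), PSMB6 in the beta ring (158.62 RPKM with ATF3 and 163.65 RPKM in the control, -0.04), PSMC4 among the ATPases (127.89 RPKM with ATF3 and 130.75 RPKM in the control, -0.03) and PSMC3 was highest there (139.12 RPKM with ATF3 and 133.94 RPKM in the control, 0.05). PSMD1 had 68.06 RPKM with ATF3 and 70.34 RPKM in the control (-0.05), and PSME1 was highest among the activators (56.35 RPKM with ATF3 and 53.89 RPKM in the control, 0.06).

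The differences with ATF3 had opposite signs in the lines for 22 of 39 members, against 51.5% of 10331 genes. Of these, 17 were lower in C8161 and higher in A2058 (25.4% of all genes were), and 5 were higher in C8161 and lower in A2058 (26.1%). A further 13 members were higher in both and 4 were lower in both, and the share of all genes was not taken for these counts. With columns scaled to the same sum, 12 were lower in C8161 and higher in A2058 and 11 the reverse, against 18.7% and 34.4% of all genes. The C8161 ratio minus the A2058 ratio had a median of -0.05, and Spearman's rho between them was -0.23 over 39 genes. The lines share no libraries. The largest such differences were those of PSMB3 (-0.39), PSMA7 (-0.31) and PSMB5 (-0.27), and with 1 ratio per line none of them was tested. The level of ATF3 itself differed between the arms compared, at 62.57 RPKM in C8161 and 4.71 RPKM in A2058, and its part in the difference was not tested.

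GC content moved with the C8161 ratios. Over the 39 members, Spearman's rho between the ratio and the GC content of the transcript was -0.51, and over 10861 genes it was -0.44. In A2058 these values were 0.03 and 0.09 (over 11758 genes). Of the 20 members at or above the members' median GC content of 48.7%, 14 were below 0 in C8161 (median -0.09), against 58.2% of all genes in that GC range. Of the 19 members under it, 7 were below 0 (median 0.03), against 30.4% of all genes in their range. The beta genes PSMB3 (53.6% GC), PSMB4 (51.8%), PSMB5 (51.9%) and PSMB6 (54.9%) lay in the upper range. With the trends of all genes with GC content and length removed, they stood at -0.19, -0.20, -0.18 and -0.20. The median of the constitutive beta ring was then -0.18, with PSMB10 at -0.20, PSMA7 at -0.19 and PSMD8 at -0.14. No level band was drawn from ratios with the trends removed. Against its band as deposited, which began at -0.27, PSMB10 then lay inside, though this sets unlike ratios side by side.

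**Figure D3:**
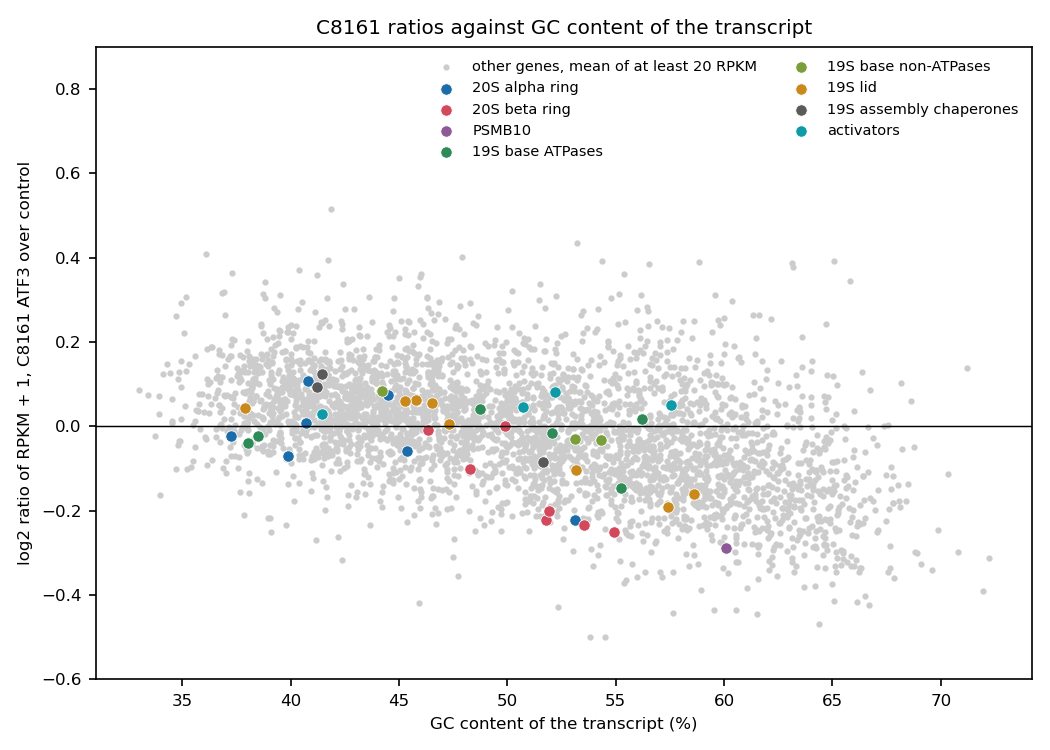
Log2 ratio of RPKM + 1 in C8161, ATF3 over control, against transcript GC content (%), for 39 proteasome genes (large points, by role) and all other genes with a mean level of at least 20 RPKM (grey). Ratios are lower at higher GC content in both, and PSMB3, PSMB4, PSMB5 and PSMB6 (-0.20 to -0.25) lie in the lower part of the grey points around them.

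Between the lines the differences were much larger than those with ATF3. In the controls, the C8161 over A2058 log2 ratio of the 39 members had a median of 0.34, against -0.19 over 12372 genes, and 28 of 39 were above 0, against 40.7% of all genes. At least 2-fold higher in C8161 were 2 members, PSMD2 and PSMA1 (9.36% of genes), and at least 2-fold lower were 0 (20.7% of genes). These folds are of RPKM + 1. Without the added 1, PSMB4 was at 0.499 times its A2058 level, so it lies at that limit, and PSMC2 followed it. Above the level band lay 1 member, PSMD2 (2.65% of genes), and below it 0 (2.31% of genes). The arms with ATF3, which are other libraries of the same lines, had a median of 0.23 with 25 of 39 above 0, against 41.4% of all genes. Of the 39, 36 had the same sign in both arms. Both arms compare the same lines, and the share of all genes with the same sign was not taken. With trends in GC content and length removed, the control median was 0.16.

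PSMD2 had 721.97 RPKM in C8161 with ATF3 and 130.59 RPKM in A2058 with ATF3 (5.53-fold), and 738.31 RPKM in the C8161 control and 128.85 RPKM in the A2058 control (5.73-fold). Both C8161 columns were far above both A2058 columns. The gene spans chr3:184299241-184309050 (GRCh38, plus strand). Of the genes nearest in level, 98.8% had a lower ratio in the controls. Of the 21 other genes compared within 1 Mb, 0 had a larger ratio, and their median was 0.35. The nearest in size was AP2M1, an adaptor subunit of clathrin-coated vesicles, with 641.37 RPKM in the C8161 control and 202.08 RPKM in the A2058 control (3.17-fold). EIF4G1, a translation initiation factor gene next to PSMD2, had 323.43 RPKM in the C8161 control and 203.09 RPKM in the A2058 control (1.59-fold).

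PSMA1, whose product is an outer-ring subunit, had 309.80 RPKM in C8161 with ATF3 and 116.42 RPKM in A2058 with ATF3 (2.66-fold), and 322.49 RPKM in the C8161 control and 114.77 RPKM in the A2058 control (2.81-fold). It spans chr11:14504876-14643662 (minus strand), and 48.4% of its transcript sequence is shared with an overlapping annotated gene. The 7 other genes compared within 1 Mb had a median of 1.01. RRAS2, a RAS-related GTPase gene among them, had 297.37 RPKM in the C8161 control and 13.74 RPKM in the A2058 control (21.6-fold), and COPB1, a coat protein gene, had 91.48 RPKM in the C8161 control and 44.78 RPKM in the A2058 control.

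PSMB4 went the other way, with 219.08 RPKM in C8161 with ATF3 and 521.10 RPKM in A2058 with ATF3 (log2 -1.25), and 255.79 RPKM in the C8161 control and 512.35 RPKM in the A2058 control (log2 -0.999). It spans chr1:151399573-151401937 (plus strand). The 40 other genes compared within 1 Mb had a median of -0.63, and PSMD4, which lies 132094 bases from PSMB4, was at -0.65. PSMC2, a base ATPase gene at chr7:103347524-103369395 (plus strand), had 40.18 RPKM in the C8161 control and 77.92 RPKM in the A2058 control (log2 -0.94). Of its 21 neighbours, 0 were above 0, 17 were at least 2-fold lower in C8161, and their median was -1.36. Over the 38 members with at least 5 such neighbours, the ratio of the member and the median of its neighbours had a Spearman's rho of 0.63, with some neighbourhoods shared.

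**Figure D4:**
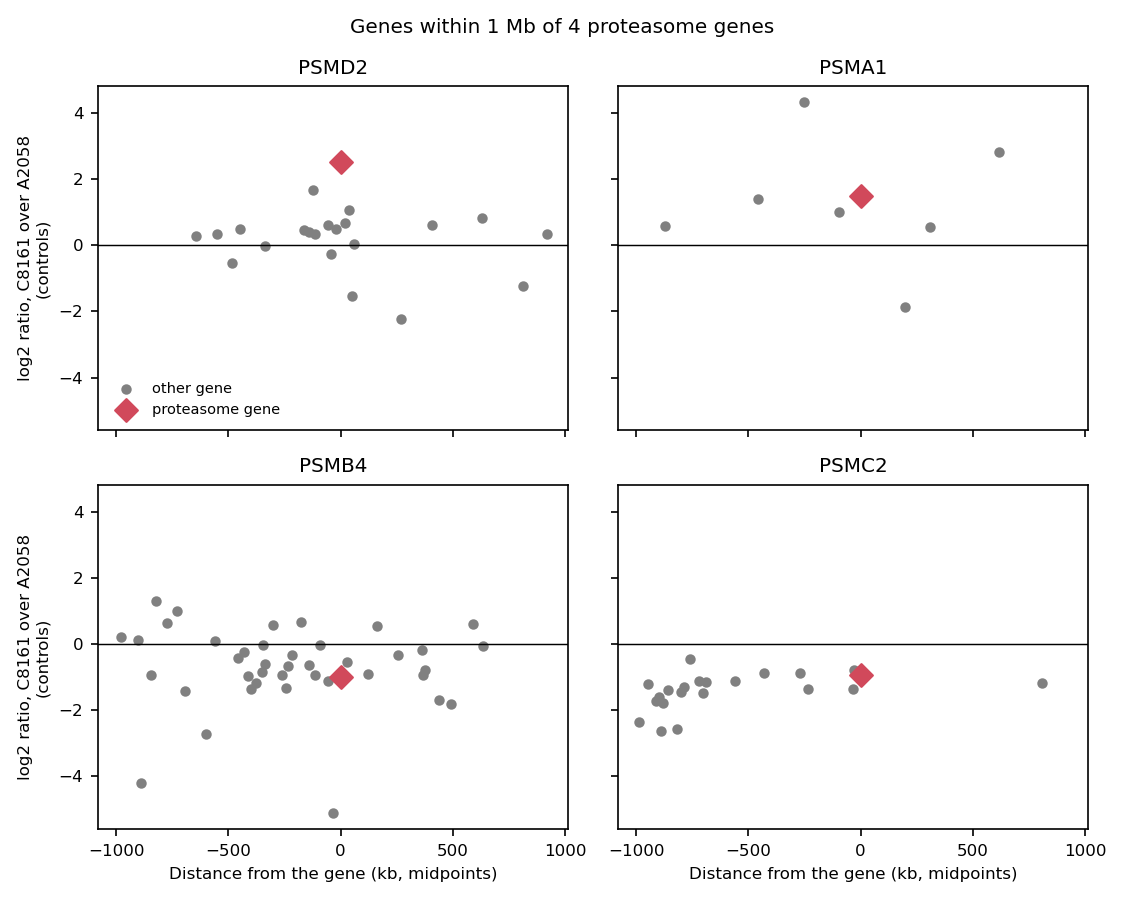
Log2 ratio of RPKM + 1, C8161 control over A2058 control, of PSMD2, PSMA1, PSMB4 and PSMC2 (diamonds) and of the other genes compared within 1 Mb (grey), against distance in kb. PSMD2 stands above all of its 21 neighbours, and PSMC2 lies among neighbours that are all below 0.

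By role, all 7 alpha genes were higher in the C8161 control than in the A2058 control, against 40.7% of all genes. Their median was 0.42, or 0.19 with GC and length trends removed. PSMA6 had 227.84 RPKM in the C8161 control and 144.68 RPKM in the A2058 control (0.65) and PSMA4 had 178.05 RPKM in the C8161 control and 122.36 RPKM in the A2058 control (0.54), while PSMA7 was close, at 306.40 RPKM in the C8161 control and 274.50 RPKM in the A2058 control (0.16). PSMA7 was below 0 after quantile normalization and in the arms with ATF3 (-0.15), and PSMA2 was below 0 with GC and length trends removed. In the constitutive beta ring 5 of 7 were above 0, led by PSMB2 (62.48 RPKM in the C8161 control and 37.16 RPKM in the A2058 control, 0.73) and PSMB1 (224.30 RPKM in the C8161 control and 140.98 RPKM in the A2058 control, 0.67). That number was 3 in the arms with ATF3, where the median was -0.05, against 0.23 in the controls and 0.06 in the controls after quantile normalization.

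The base ATPases were split, with 3 above 0 and 3 below, where 40.7% of all genes were above 0. PSMC6 had 77.98 RPKM in the C8161 control and 46.40 RPKM in the A2058 control (0.74), against 150.58 RPKM in the C8161 control and 232.49 RPKM in the A2058 control for PSMC5 (-0.62). In the lid 6 of 8 were above 0, with PSMD13 highest (231.41 RPKM in the C8161 control and 127.16 RPKM in the A2058 control, 0.86), then PSMD7 (116.05 RPKM in the C8161 control and 83.12 RPKM in the A2058 control, 0.48) and PSMD6 (108.49 RPKM in the C8161 control and 81.84 RPKM in the A2058 control, 0.40). All 3 chaperones were above 0, at 0.53 for PSMD10, 0.35 for PSMD9 and 0.34 for PSMD5. The activators were closest to equal, with PSME3 at 0.35, PSME1 at 0.21, PSME4 at -0.11 and PSME2 at -0.13. The melanocyte-lineage sum, 1.45 RPKM in the C8161 control and 1503 RPKM in the A2058 control, moved with the comparison of lines, and its part in these differences was not tested.

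**Figure D5:**
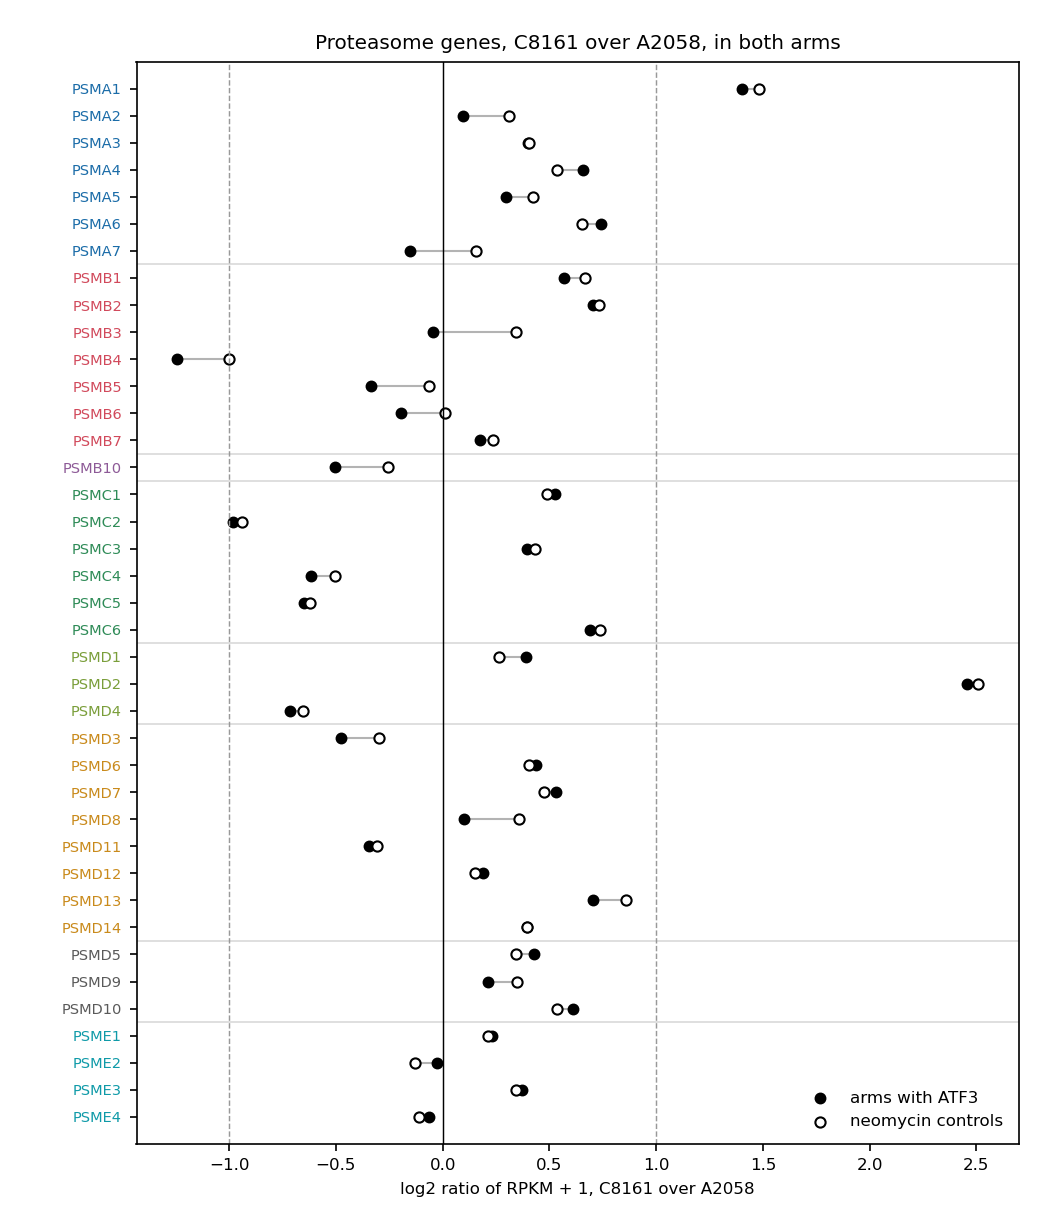
Log2 ratio of RPKM + 1, C8161 over A2058, for each of 39 proteasome genes in the arms with ATF3 (filled) and in the neomycin controls (open), grouped as in the plot of levels, with dashed lines at a 2-fold difference. PSMD2 and PSMA1 lie beyond 2-fold in both arms, and PSMB4 lies at the lower limit in the controls (-0.999) and beyond it with ATF3 (-1.25).

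Other genes of the pathway were read from 4 lists of 37 genes in all, none of them members. Of all genes, 52.0% were above 0 in C8161 with ATF3 and 51.3% in A2058 with ATF3, and no list was tested against these shares. Of the 7 core assembly factors, 3 were above 0 in C8161 with ATF3 and 5 in A2058 with ATF3. PSMG3 had 35.08 RPKM in C8161 with ATF3 and 44.27 RPKM in its control (-0.33, below its band), PSMG4 had 15.62 RPKM with ATF3 and 18.79 RPKM in the control (-0.25), and POMP, which helps the beta ring to assemble, had 100.70 RPKM with ATF3 and 112.83 RPKM in the control (-0.16). In A2058, PSMG2 had 39.86 RPKM with ATF3 and 35.40 RPKM in the control (0.17, above its band), and PSMG4 had 46.03 RPKM with ATF3 and 53.23 RPKM in the control (-0.21, below its band). Of the 10 other subunits and associated proteins, 7 were above 0 in C8161 and 4 in A2058. SEM1, a small lid subunit, had 87.34 RPKM in C8161 with ATF3 and 71.16 RPKM in its control (0.29, above its band). Of all genes, 2.74% lay above and 2.67% below the band in C8161, and 2.67% and 2.72% in A2058. With GC and length trends removed, PSMG3 (-0.26) and SEM1 (0.25) in C8161 and PSMG2 (0.14) in A2058 lay inside the bands as deposited. PSMG4 in A2058 (-0.23) stayed below its band. In C8161, the ubiquitin receptor ADRM1 was at -0.15 and its partner deubiquitinase UCHL5 at 0.13.

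Of the 8 genes that control transcription of the subunits, 5 were above 0 in C8161 and 2 in A2058, against 52.0% and 51.3% of all genes. NFE2L1 had 97.34 RPKM in C8161 with ATF3 and 89.82 RPKM in its control (0.11), and 129.74 RPKM in A2058 with ATF3 and 133.82 RPKM in its control (-0.04). The protease DDI2, which cleaves NFE2L1, was at -0.18 in C8161, KEAP1, which restrains NFE2L2, at -0.18 and the small MAF gene MAFF at 0.13. Of the 12 genes for ubiquitin, its activating enzymes and shuttle factors, 6 were above 0 in C8161 and 7 in A2058. The polyubiquitin gene UBB had 852.59 RPKM in C8161 with ATF3 and 987.69 RPKM in its control (-0.21), and 1344 RPKM in A2058 with ATF3 and 1242 RPKM in its control (0.11). The activating enzyme UBA1 was at -0.14 in C8161. Over the 37 genes the median was 0.015 in C8161 and -0.0048 in A2058, beside 0.0068 and 0.0039 over all genes.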

How the data were processed

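Per the labels, total RNA of A2058 and C8161 was made into libraries for DNA nanoball sequencing, 8 in all. RPKM values of 18478 Entrez identifiers, given to 2 decimals, were deposited by the authors in 1 table whose header names the unit. Per the submitters' processing notes, RSEM and Bowtie2 were used with hg38. Not given in the sources used here are versions, annotation, filters, strand setting and whether the combined C8161 columns are means or pooled reads. Depth is unknown, and no SD, interval or test could be had with 1 value per arm.

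Values were used as deposited, on log2(RPKM + 1), and a gene was compared where either column reached 1 RPKM. Symbols came from RefSeq (GRCh38.p14), matched by identifier for 18156 genes and not for 322. GC content, length, shared 50-base stretches and exon overlaps came from GENCODE 29, with 1 principal transcript per gene. Strand being unknown, reads of the 14 members that overlap an exon on the opposite strand cannot be told apart from those of the partner. Trends with GC content and length were removed by a fit over all genes. The limma fit planned for values per library was not run.

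Genes named are, per role group, those with the highest and lowest ratio in each line and the highest and lowest level, and up to 3 with the largest difference between lines, and up to 3 per pathway list by C8161 ratio. Of the genes this rule names, 1 is not reported here. PSMB5, PSMG2 and PSMG4 in A2058, UBB in A2058, NFE2L1 and genes within 1 Mb were chosen after their values were seen. Members and lists were chosen with earlier results of these data known. PSMA8 was not analysed here. Python 3.11.15, numpy 2.4.6, pandas 2.3.3 and matplotlib 3.10.9 were used.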

Additional observations from a re-analysis of the deposited data

Results flagged for a closer look

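The ratio with ATF3 lay on opposite sides of 0 in the lines for 22 of 39 members, against 51.5% of 10331 genes. The 3 members with the largest differences are listed here. Of their ratios, only that of PSMB3 in A2058 lay outside its level band. The C8161 log2 ratio minus the A2058 log2 ratio was -0.39 (-0.3891) for PSMB3, -0.31 (-0.311) for PSMA7 and -0.27 (-0.2722) for PSMB5. Each was lower with ATF3 in C8161 and higher with ATF3 in A2058. With 1 value per arm, the difference was not tested.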

How the results depend on the processing

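The alternatives were pseudocounts of 0.1 and 5, no minimum and a minimum of 5 RPKM, columns scaled to the same sum, quantile normalization, removal of GC and length trends, and leaving out members that share sequence or are no constitutive subunit. In place of -0.02, the C8161 median was 0.01 (0.0106) with columns scaled to the same sum and 0.01 (0.0066) after quantile normalization, so its sign depends on the scaling. The median of all genes in C8161 was 0.0298 with columns scaled to the same sum and 0.0049 after quantile normalization, against 0.0068 as deposited. In place of 0.34, the median between the control lines was 0.16 (0.1601) with trends removed and 0.23 (0.2319) in the arms with ATF3, an alternative chosen after seeing the data. The cause was not tested. The C8161 count above 0 was 18 of 39 as deposited, 22 with columns scaled to the same sum and 20 after quantile normalization. Which sign most members had in C8161 thus also depends on the scaling. The medians and counts above 0 over the 39 members otherwise kept their direction, within 0.05 of the log2 value or 1.5 times the count. Medians of single role groups were less stable: that of the base ATPases in A2058 was 0.01 as deposited and -0.01 with columns scaled to the same sum, and that of the lid in C8161 was 0.02 as deposited and -0.02 with trends removed. Quantile normalization put the median of all genes between the control lines at 0.08, against -0.19 as deposited. Of 117 ratios of single genes, 42 moved by over 0.05 with trends removed, 24 after quantile normalization and 6 with a pseudocount of 5. No paired analysis was possible because each C8161 arm is 1 combined column and each A2058 arm 1 library, and for the same reason no replicate could be left out. Ratios near 0 cannot be told from counting error in columns of unknown depth.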

Other observations

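Of the 40 members, 8 lie on chromosome 14 and 7 on chromosome 17. PSME1 and PSME2 lie 4403 bases apart, and PSMB5 and PSMB11 lie 6992 bases apart. PSMB5 had 162.15 RPKM in the C8161 control and 169.67 RPKM in the A2058 control, while PSMB11 had at most 0.01 RPKM in any column.

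Some members stood apart from their neighbours in the comparison of lines. PSME3 on chromosome 17 was at 0.35 (140.34 RPKM in the C8161 control, 110.24 RPKM in the A2058 control), whereas the 49 other genes compared within 1 Mb had a median of -1.01, with 25 at least 2-fold lower in C8161 and 4 above 0. PSMA4 was at 0.54 among 16 genes with a median of -0.66, and PSMC3 at 0.43 among 23 genes with a median of -0.58.

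The interferon-inducible beta subunits that the rule leaves out lay under the median of the expressed members (110 to 116 RPKM) in all columns. PSMB8 had 20.47 RPKM in C8161 with ATF3 and 22.67 RPKM in its control (-0.14), and 19.09 RPKM in A2058 with ATF3 and 21.42 RPKM in its control (-0.16, below its level band). Below the band in A2058 lay 2.72% of all genes. PSMB9 had 1.84 and 1.67 RPKM in C8161 with ATF3 and its control, and 2.90 and 2.51 RPKM in A2058 with ATF3 and its control.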
